A study of Rattus norvegicus with 6 samples.

Results

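The genes described here code for proteasome subunits, ubiquitin-activating and ubiquitin-conjugating enzymes, cullins, F-box proteins, the muscle ligase Trim63 and deubiquitinases. They were chosen by the gene symbol of the array annotation alone, and the rule itself uses no measured value. It was set with earlier results of these data known. The symbols taken began with Psma to Psmg, Ube2, Uba, Usp, Uch, Otu, Cul, Fbxo, Fbxw or Fbxl, or were Trim63, and the interferon-induced Psmb8, Psmb9, Psmb10 and Usp18 were left out. This gave 203 of 26481 probes and 158 of 12589 named genes. Symbols also bring in genes with another function, of which these are examples and not a full list. Psmc3ip works in meiotic recombination, Haus7 (annotated as Uchl5ip) in spindle assembly, and Usp6nl is a GTPase-activating protein. Kdm2a and Kdm2b are F-box proteins known as histone demethylases. Ube3d, annotated as Ube2cbp, is counted among the conjugating enzymes by that symbol.

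Ubiquitin is a small protein that an activating enzyme (E1), a conjugating enzyme (E2) and a ligase (E3) attach in turn to a target, and deubiquitinases remove it. Chains of ubiquitin mark most such targets for the proteasome, a barrel-shaped protease made of a 20S core that cuts proteins and 19S caps that unfold them. Cullins hold the largest family of ligases together, and F-box proteins are the parts of the Cul1 ligases that pick the target. In skeletal muscle, Trim63 and Fbxo32 are the ligases best known for their rise in atrophy.

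The RNA came from the callus region of the right hind-limb (Sprague-Dawley rats) and was hybridised to 2-colour oligonucleotide arrays. The 4 groups were pair-fed rats with fracture, pair-fed rats without fracture, alcohol-fed rats with fracture and alcohol-fed rats without fracture. All were weanlings of 4 weeks put on a Lieber & DeCarli liquid diet, with ethanol in the alcohol-fed groups, for 4 weeks. The fracture was closed, in the middle of the shaft and over a steel pin, and tissue was taken after 3 days. Whether rats without fracture also received the pin is not stated. Each group has 3 numbered samples, each used on 1 of the 6 possible pairings of groups, with a dye swap. The labels do not say that numbered samples are separate rats, so p-values measure a spread that may be partly technical.

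The deposited measurement is a log ratio of each probe on each pairing, of unstated base, so no folds are quoted. A positive ratio is taken to mean more signal in the group that the title names first, which neither the dyes nor the values settle. Were all columns the reverse of this, all signs given here would change together. Pair-fed fracture was paired with alcohol-fed fracture in one column and with alcohol-fed no fracture in another, and across 26481 probes these columns correlated at -0.616 although they share a group. Across the 203 ubiquitin and proteasome probes the value was -0.551. Main results are therefore also given with the second of these columns turned, meaning with its sign reversed. Group differences fitted to the 6 pairings left 0.424 of the members' sum of squares unexplained with the titles' signs and 0.31 with that column turned. Over all 23549 rows these shares were 0.403 and 0.317. The arrays give ratios and no levels here, so whether markers of the labelled tissue are present could not be checked.

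The genes that passed the test below were Uchl1 on one side and Ube2g1, Fbxo5 and Fbxo42 on the other, and their promoters are shown so that the start regions of these opposite movers can be compared. The sequences are from RefSeq, build GRCr8, 250 bases before to 50 after the annotated start, written along the gene's strand. They lie at chr14:41849368-41849667 (minus strand) for Uchl1, chr1:44607732-44608031 (minus strand) for Fbxo5, chr10:57724258-57724557 (plus strand) for Ube2g1 and chr5:158733915-158734214 (plus strand) for Fbxo42. Capitals mark matches on either strand to 5 motifs. These were the CCAAT box, the cell-cycle element TTTGAA, the AP-1 site TGANTCA, the antioxidant response core TGACNNNGC and the TATA box in the form TATAAA. The AP-1 and antioxidant motifs can overlap.
Uchl1: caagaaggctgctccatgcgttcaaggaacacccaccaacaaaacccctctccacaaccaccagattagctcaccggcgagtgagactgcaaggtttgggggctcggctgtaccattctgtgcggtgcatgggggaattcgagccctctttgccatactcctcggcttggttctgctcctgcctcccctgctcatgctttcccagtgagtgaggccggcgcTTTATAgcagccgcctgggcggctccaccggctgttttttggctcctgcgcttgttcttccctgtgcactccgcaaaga
Fbxo5: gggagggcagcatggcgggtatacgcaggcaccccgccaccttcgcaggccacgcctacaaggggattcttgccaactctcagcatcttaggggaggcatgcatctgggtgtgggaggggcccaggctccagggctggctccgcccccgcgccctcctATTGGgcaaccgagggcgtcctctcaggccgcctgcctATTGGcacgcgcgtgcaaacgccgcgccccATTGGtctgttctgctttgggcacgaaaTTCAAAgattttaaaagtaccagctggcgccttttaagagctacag
Ube2g1: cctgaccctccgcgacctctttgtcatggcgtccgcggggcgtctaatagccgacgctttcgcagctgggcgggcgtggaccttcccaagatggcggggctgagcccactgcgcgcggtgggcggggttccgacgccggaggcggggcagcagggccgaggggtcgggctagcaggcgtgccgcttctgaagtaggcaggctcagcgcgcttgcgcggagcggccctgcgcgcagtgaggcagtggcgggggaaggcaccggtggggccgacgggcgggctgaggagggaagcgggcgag
Fbxo42: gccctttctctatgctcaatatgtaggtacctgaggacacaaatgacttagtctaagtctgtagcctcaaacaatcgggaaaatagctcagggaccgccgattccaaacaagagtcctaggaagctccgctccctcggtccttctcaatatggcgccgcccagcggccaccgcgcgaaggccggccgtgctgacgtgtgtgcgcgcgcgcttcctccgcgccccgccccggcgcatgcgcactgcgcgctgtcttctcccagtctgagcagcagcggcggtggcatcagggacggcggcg
The Uchl1 promoter held the TATA box at position -29 from the start, written TTTATA on the strand shown. Fbxo5 held the CCAAT box at 3 places, at -92, -54 and -24, each written ATTGG, and the cell-cycle element at position 4. No match was found in the windows of Ube2g1 and Fbxo42.

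Of the 158 genes, 134 had a promoter in the table. CCAAT was in 32.1% of them and in 37.7% of all 27457 promoters, TTTGAA in 11.9% and 18.1%, TGANTCA in 4.48% and 7.33%, TATAAA in 6.72% and 14.3%, and TGACNNNGC in 18.7% and 12.2%. Among 32 promoters of proteasome subunits, activators and chaperones, TGACNNNGC was in 7, which is 21.9%. It was in 6 of 19 promoters of conjugating enzymes, 31.6%, and in 7 of 33 of USP deubiquitinases, 21.2%. Among 36 promoters of F-box proteins it was in 3, which is 8.33%. The median GC content was 61.2% in the 134 promoters and 52.3% in all. These matches are descriptions of letters and not of binding.

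As a whole, the ubiquitin and proteasome genes were centred near 0 on every pairing. Their median log ratio lay between -0.052, on pair-fed no fracture over alcohol-fed no fracture, and 0.046, on pair-fed fracture over alcohol-fed no fracture. On that last pairing, the column whose sign is in doubt, the median of all rows was -0.047, and on the other it was 0.016. The medians of members and of all rows thus lay on opposite sides of 0 on both. These gaps were small beside the members' standard deviations of 0.385 and 0.395 on the same pairings. The members' standard deviation was smallest on pair-fed fracture over pair-fed no fracture, at 0.235 against 0.245 for all rows. It was largest on pair-fed fracture over alcohol-fed fracture, at 0.664 against 0.513. On that pairing 14 of 158 members were more than 1 log unit from 0, which is 8.86%, against 5.78% of all rows. This share was 9.49% against 7.78% on alcohol-fed fracture over alcohol-fed no fracture. On pair-fed no fracture over alcohol-fed no fracture it was 3.165% against 1.185%. It was below that of all rows on the other pairings, such as 0.633% against 1.8% on pair-fed no fracture over alcohol-fed fracture. With 1 column per pairing, such a difference has no replicate check.

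**Figure D1:**
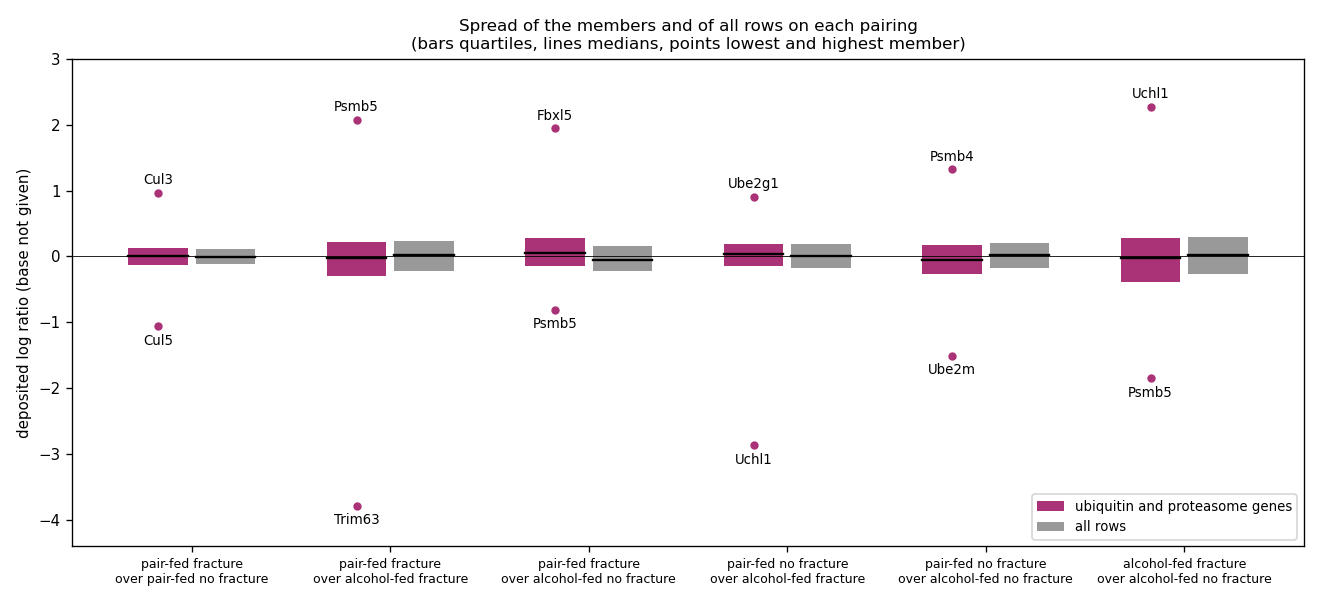
Deposited log ratio (vertical axis, base not given) of the 158 ubiquitin and proteasome genes and of all 23549 rows on each of the 6 pairings; bars span the quartiles, black lines are medians, and points are the lowest and highest member. The bars of both sets overlap on every pairing, while single genes such as Trim63, at -3.78, and Uchl1, at -2.87, lie far outside them.

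The share of members that held to one side of 0 on all 3 pairings of a group was near that of all rows. Relative to its partners, the alcohol-fed fracture group was higher on all 3 of its pairings in 32 members, 20.3%, and lower on all 3 in 33, 20.9%, beside 20.8% and 23% of all rows. With a size over 0.5 on each of the 3 pairings, a limit chosen after the values were seen, Uchl1 was the one member higher in that group, and Fbxo42, Fbxo5, Ube2g1, Ube2c and Cul5 were lower. No share of all rows is given at this limit, so no lean of the members can be read from these names. The column whose sign is in doubt is not among these 3 pairings. For the pair-fed fracture group, 6 members were higher and 17 lower on all 3 pairings, 3.8% and 10.8%, beside 5.2% and 9.77% of all rows, and with the doubtful column turned 22 and 17, which is 13.9% and 10.8%, beside 17.8% and 12.3% of all rows.

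The effect of fracture was tested first in alcohol-fed rats, as alcohol-fed fracture minus alcohol-fed no fracture in a limma fit of all 6 pairings. Across all rows 999 of 23549 passed an adjusted p of 0.05 (Benjamini-Hochberg), a background of 4.24%, or 0.828% towards fracture and 3.41% away from it. Among the 158 members 4 passed, 2.53%, with 1 positive (Uchl1) and 3 negative (Ube2g1, Fbxo5 and Fbxo42). The members' share was thus no larger than the background. At an unadjusted p under 0.05 there were 29 members, 18.4%, beside 18.9% of all rows. Of these 12 were positive, beside 8.17% of all rows, and 17 negative, beside 10.8%. The median fitted value was 0.025 over members and 0.022 over all rows. In bulk tissue, fewer cells of a type and less RNA per cell cannot be told apart.

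**Figure D2:**
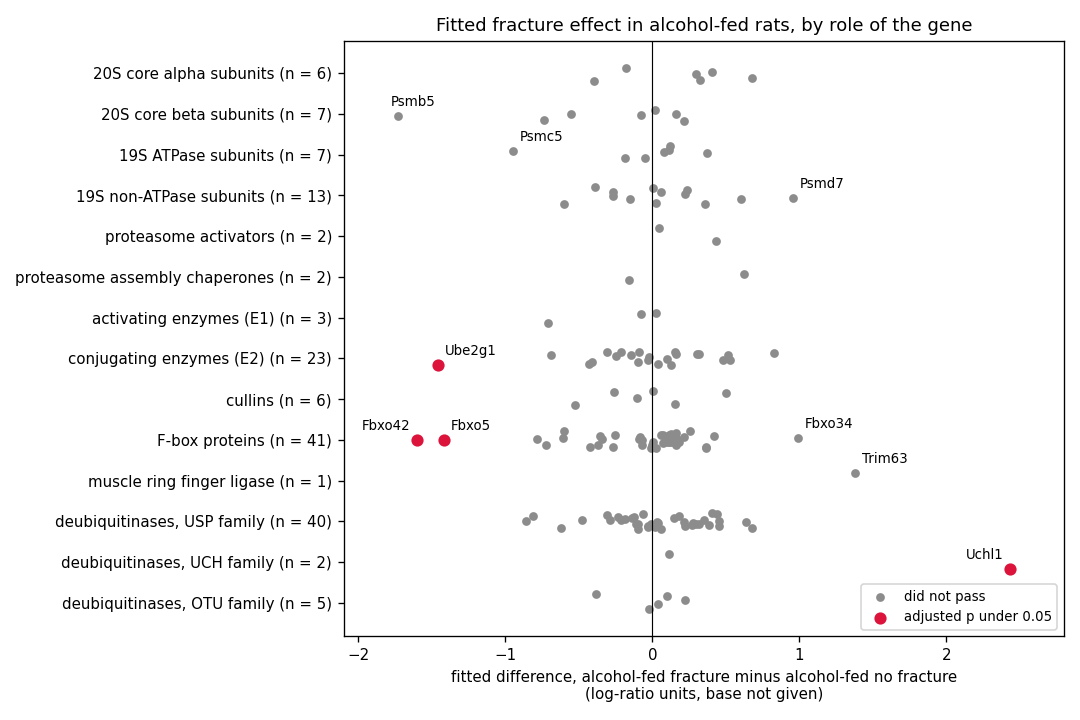
Fitted fracture effect in alcohol-fed rats (horizontal axis, log-ratio units, base not given) of each of the 158 genes, in rows by role; red points passed an adjusted p of 0.05. Most genes lie within 1 unit of 0, with Uchl1 at 2.44 and Fbxo42 at -1.60 as the extremes that passed; the row of UCH genes also holds Haus7 and the row of ATPase subunits Psmc3ip, which match by symbol.

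Uchl1 is a ubiquitin C-terminal hydrolase that is abundant in neurons. Its deposited ratio was 0.66 on pair-fed fracture over pair-fed no fracture, -2.63 on pair-fed fracture over alcohol-fed fracture, 1.17 on pair-fed fracture over alcohol-fed no fracture, -2.87 on pair-fed no fracture over alcohol-fed fracture, -1.47 on pair-fed no fracture over alcohol-fed no fracture and 2.27 on alcohol-fed fracture over alcohol-fed no fracture. All 3 pairings with alcohol-fed fracture placed it higher in that group, and all 3 with pair-fed no fracture placed it lower in that one. The fitted fracture effect in alcohol-fed rats was 2.44 ± 0.39 (SE, 6 pairings), with an adjusted p of 0.0316. In pair-fed rats the fitted effect was 1.05 ± 0.39 with an adjusted p of 1, and 0.47 ± 0.22 with the doubtful column turned. Group differences with the doubtful column turned left 0.018 of its sum of squares unexplained, and 0.0742 with the titles' signs. This share was lower with the column turned in 103 of 158 members, 65.2%, beside 59.8% of all rows. For Ube2g1 and Fbxo5, described below, it was higher with the column turned.

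Among the rows most like Uchl1 were genes of muscle. Over the 6 pairings the rows with a symbol and the highest Pearson correlation with it were Tnni2 (0.994), Mybpc2 (0.992), Fitm1 (0.992), Brd9 (0.991) and Batf (0.991). The points share their arrays, and 6 values from a table of this size give high correlations readily. Tnni2, a fast troponin, had ratios of 0.72, -1.91, 0.97, -2.26, -1.41 and 2.30 on the same pairings in the same order. In the fitted fracture effect in alcohol-fed rats, 13 of 14 measured skeletal muscle markers were positive. Of the 14, 4 passed, all positive, beside 0.828% of all rows, and the median was 1.05, or 0.79 with the column turned. Of 10 nerve and Schwann cell markers 4 were positive, the median was -0.15, or 0.013 with the column turned, and 1 passed, Sox10 at -0.72. The part of muscle or nerve content in the Uchl1 values was not tested.

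Ube2g1, an E2 that builds ubiquitin chains with cullin ligases, ran the other way. Its ratios were 0.25 on pair-fed fracture over pair-fed no fracture, 1.46 on pair-fed fracture over alcohol-fed fracture, -0.33 on pair-fed fracture over alcohol-fed no fracture, 0.91 on pair-fed no fracture over alcohol-fed fracture, -0.72 on pair-fed no fracture over alcohol-fed no fracture and -1.21 on alcohol-fed fracture over alcohol-fed no fracture. It was lower in alcohol-fed fracture on all 3 pairings of that group. The fitted fracture effect in alcohol-fed rats was -1.46 ± 0.17 (SE), with an adjusted p of 0.028.

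Fbxo5, also called Emi1, holds back the anaphase-promoting complex, the ligase that ends mitosis. In the same order of pairings its ratios were 0.01, 0.90, -0.14, 0.86, -0.43 and -1.67. It too was lower in alcohol-fed fracture on all 3 pairings, with 0.01 between the pair-fed groups. The fitted fracture effect in alcohol-fed rats was -1.42 ± 0.17, with an adjusted p of 0.028. Fbxo42, an F-box protein with kelch repeats, had 0.22, 1.90, -0.30, 0.63, -0.57 and -1.50, and a fitted value of -1.60 ± 0.22 with the same adjusted p of 0.028. It was likewise lower in alcohol-fed fracture on its 3 pairings.

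Proliferation genes moved beside Fbxo5. Of 14 measured, 12 were negative in the fracture effect in alcohol-fed rats, and 3 passed, all negative, beside 3.41% of all rows. The median was -0.32, or -0.41 with the doubtful column turned, where 0 of all rows passed. Mki67 was at -1.60 ± 0.21 and Top2a, the highest, at 0.89. Ube2c, the E2 of the anaphase-promoting complex, had ratios of 0.30, 0.57, -0.10, 0.55, 0.26 and -0.90 and a fitted value of -0.69 ± 0.19 with an adjusted p of 0.11. Ube2s, which extends chains for the same complex, was at -0.25 ± 0.18. The part of dividing cells in these values was not tested.

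**Figure D3:**
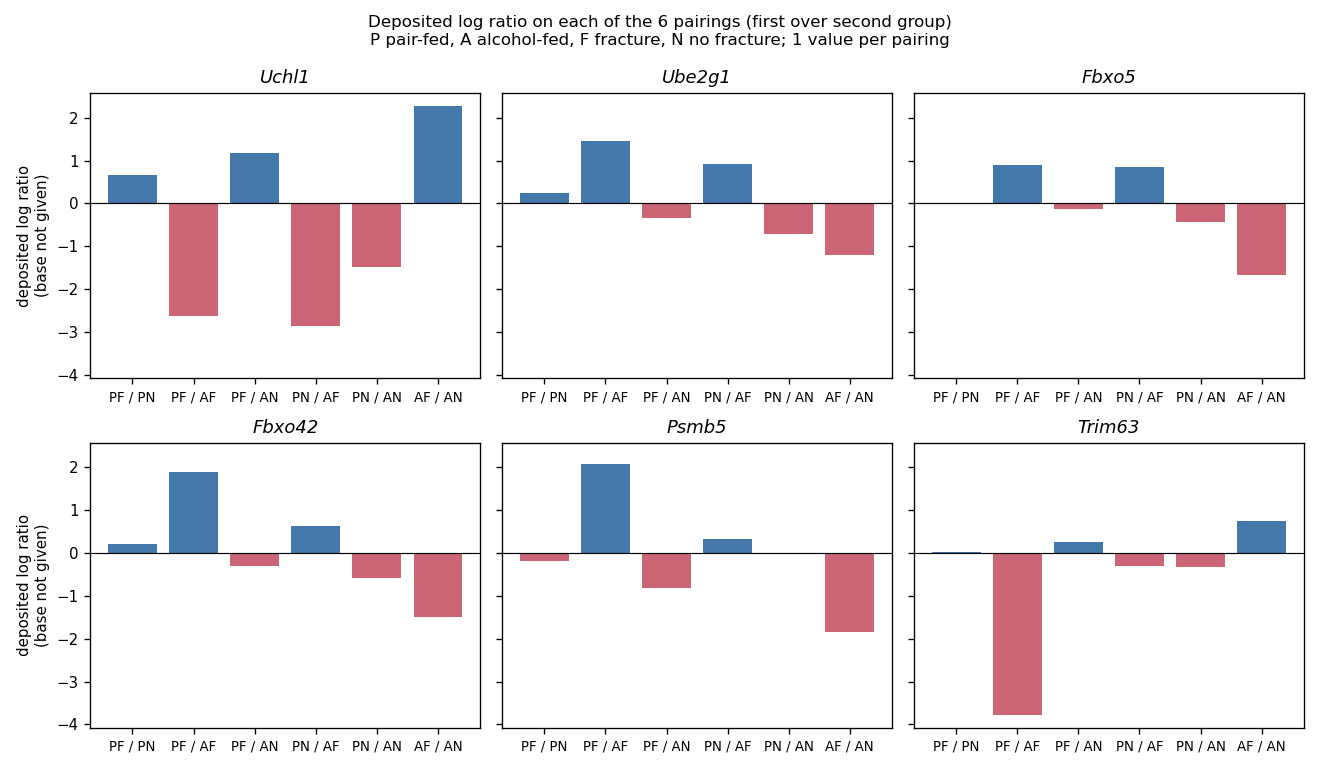
Deposited log ratio (vertical axis, base not given) of 6 genes on each of the 6 pairings, 1 bar per pairing and no replicate; bars above 0 are higher in the group named first. The bars of Uchl1 point away from those of Ube2g1, Fbxo5 and Fbxo42 on the 3 pairings with alcohol-fed fracture, and Trim63 has 1 long bar, at -3.78.

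In the alcohol effect in fractured rats, which is alcohol-fed fracture minus pair-fed fracture, 0 members and 0 of all rows passed in limma, a background of 0%. At an unadjusted p under 0.05 there were 15 members, 9.49%, beside 11.5% of all rows, and the smallest adjusted p was 0.103. Of these 5 were positive, beside 4.68% of all rows, and 10 negative, beside 6.83%. The largest fitted values were 2.14 ± 0.39 for Uchl1, 2.08 ± 0.69 for Trim63, 0.82 ± 0.25 for Ube2d1, an E2 that serves many ligases, 0.72 ± 0.23 for Ube2l3 and 0.42 ± 0.17 for Ube2q2. With the titles' signs the most negative were -1.46 ± 0.22 for Fbxo42, -1.33 ± 0.40 for Psmb5, -1.24 ± 0.17 for Ube2g1, -1.05 ± 0.17 for Fbxo5 and -0.73 ± 0.24 for Usp25. Uchl1 and the trio of Fbxo42, Ube2g1 and Fbxo5 thus lay on the same sides as in the fracture effect, with which this comparison shares the alcohol-fed fracture samples.

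The sign of 1 column decided in which of the 2 comparisons these genes passed. With pair-fed fracture over alcohol-fed no fracture turned, the alcohol effect in fractured rats called 4 members, 2.53%, beside 1.85% of all rows. They were Uchl1 at 2.73 ± 0.22 (adjusted p 0.0262), Ube2g1 at -1.40 ± 0.18 (0.0278), Fbxo42 at -1.61 ± 0.21 (0.0291) and Fbxo5 at -1.12 ± 0.20 (0.0488), so the same genes as in the fracture effect with the titles' signs. Psmb5 was then the most negative member, at -1.74 ± 0.39, and did not pass (adjusted p 0.0766). The fracture effect in alcohol-fed rats then called 0 members, beside 0% of all rows, with 32 members at an unadjusted p under 0.05, 20.3%, beside 17.8% of all rows. In it Uchl1 was at 1.85, Fbxo42 at -1.45, Fbxo5 at -1.35 and Ube2g1 at -1.29, each with an adjusted p of 0.0658.

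**Figure D4:**
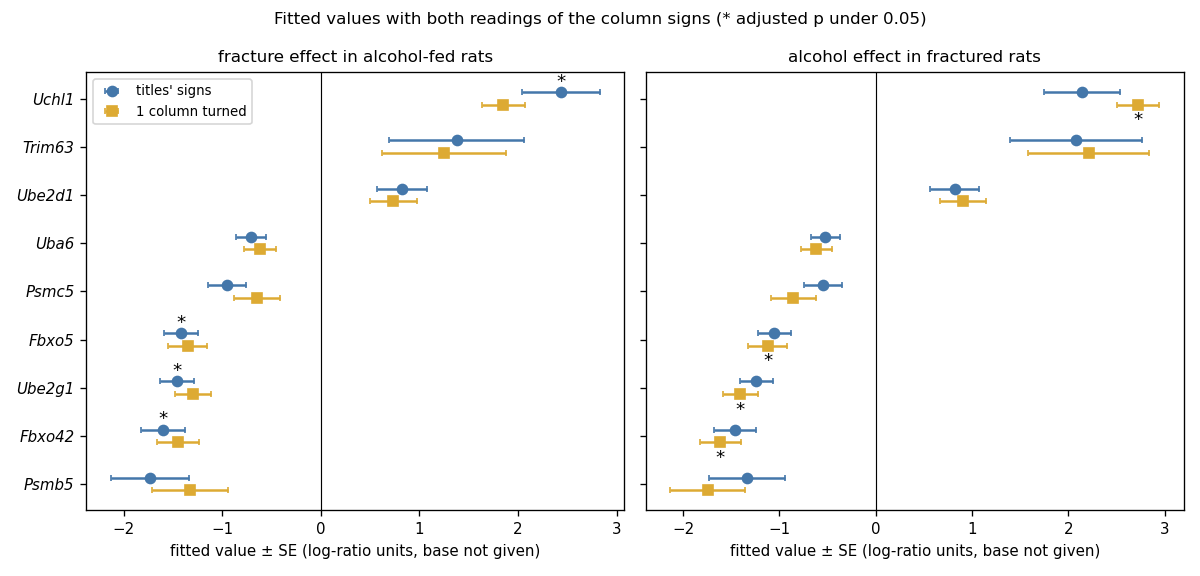
Fitted value ± SE (horizontal axis, log-ratio units, base not given) of 9 genes for the fracture effect in alcohol-fed rats and the alcohol effect in fractured rats, with the titles' signs (blue circles) and with the column of pair-fed fracture over alcohol-fed no fracture turned (yellow squares); stars mark an adjusted p under 0.05. All 9 genes keep their side of 0 in both panels, while the stars change panel with the reading.

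In the proteasome core, no subunit passed in any of the 5 comparisons. Of the 6 measured alpha subunits, which form the outer rings, 4 were positive in the fracture effect in alcohol-fed rats, from -0.40 for Psma1 to 0.68 for Psma3, with a median of 0.31. Of the alpha subunits 1 positive and 1 negative, Psma1, had an unadjusted p under 0.05, beside 8.17% and 10.8% of all rows. The 7 beta subunits had a median of -0.077. At an unadjusted p under 0.05 there were 3 of them, all negative, beside 10.8% of all rows. These were Psmb5, which carries the chymotrypsin-like site, at -1.73 ± 0.40 (adjusted p 0.0671), Psmb6, with the caspase-like site, at -0.55 ± 0.16, and Psmb11, a subunit known from the thymus, at -0.74 ± 0.25. The 2 probes of Psmb6 differed, at -0.26 and -0.85. Psmb7, with the trypsin-like site, was at -0.08 ± 0.16, so the catalytic subunits did not share 1 value.

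Psmb5 had the widest span of the core subunits. Its ratios were -0.18 on pair-fed fracture over pair-fed no fracture, 2.07 on pair-fed fracture over alcohol-fed fracture, -0.81 on pair-fed fracture over alcohol-fed no fracture, 0.33 on pair-fed no fracture over alcohol-fed fracture, -0.01 on pair-fed no fracture over alcohol-fed no fracture and -1.85 on alcohol-fed fracture over alcohol-fed no fracture. It was the highest member on the second of these pairings and the lowest on the third and the last. Left out in turn, 1 pairing moved its call: without pair-fed no fracture over alcohol-fed fracture it was at -2.16 with an adjusted p of 0.0339. Without pair-fed fracture over alcohol-fed fracture, where it stood at 2.07, its alcohol effect in fractured rats went from -1.33 to -0.59 ± 0.39 and its interaction from -1.88 to -1.14 ± 0.48.

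In the 19S cap, the ATPase subunits thread the target into the core. Of 7 genes in that row, Psmc5 stood apart, with ratios of 0.07, 0.71, -0.61, 0.25, -0.09 and -1.07 in the order above. Its fitted fracture effect in alcohol-fed rats was -0.95 ± 0.20 with an adjusted p of 0.0505, which just missed the threshold. With 1 pairing left out that p ranged from 0.0423, at -1.11 without pair-fed no fracture over alcohol-fed no fracture, to 0.384, at -0.83 without alcohol-fed fracture over alcohol-fed no fracture. Its alcohol effect in fractured rats was -0.55 ± 0.20. The 5 other ATPases lay between -0.05 for Psmc6 and 0.37 for Psmc1. Among 13 genes counted as non-ATPase cap genes by their Psmd symbols alone, the median was 0.027. Psmd13 was at 0.61 ± 0.17 (adjusted p 0.118) and Psmd1, a scaffold of the cap, at 0.36 ± 0.14. The ubiquitin receptor Psmd4 was at 0.24 ± 0.16, the lid subunit Psmd11 at -0.39 ± 0.21, and Psmd14, which cuts ubiquitin off the target, at 0.01 ± 0.14.

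Psmd7 and Psmd8 had the widest ratios among the cap genes described. Psmd7 was at 2.16 on alcohol-fed fracture over alcohol-fed no fracture and between -0.24 and 0.29 on the other 5. Psmd8 had ratios of -0.12, -2.65, 1.02, 0.77, -0.94 and -0.93 in the order above. The pairings with alcohol-fed fracture did not place it on 1 side, and 0.887 of its sum of squares was left unexplained by group differences. The activators Psme1 and Psme2, which open the core, were at 0.04 ± 0.18 and 0.43 ± 0.29 in the fracture effect in alcohol-fed rats. Psmg1, which helps assemble the core, was at 0.62 ± 0.22 with an adjusted p of 0.195.

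Of 3 activating enzymes, Uba6 was at -0.71 ± 0.15 in the fracture effect in alcohol-fed rats, with an adjusted p of 0.0566. Its ratios were -0.04, 0.54, -0.19, 0.40, -0.01 and -0.85 in the order above, lower in alcohol-fed fracture on all 3 pairings of that group. Uba1, the main ubiquitin E1, was at 0.02 ± 0.15, and Uba3, the catalytic part of the NEDD8 E1, at -0.08 ± 0.23. The 23 genes of the E2 row had a median of -0.023, with 11 positive. Besides Ube2g1 and Ube2c, unadjusted p-values under 0.05 were found for Ube2d1 at 0.83 ± 0.25, Ube2q2 at 0.53 ± 0.17 and Ube2h, an E2 of erythroid and muscle cells, at 0.48 ± 0.14. The 3 probes of Ube2q2 were at 1.58, 0.14 and -0.14, so they did not share a sign. Ube2o, known from erythroid maturation, was at -0.41 ± 0.22. Ube2m, the NEDD8 E2, was at -2.07 on pair-fed fracture over alcohol-fed fracture and -1.51 on pair-fed no fracture over alcohol-fed no fracture, higher in the alcohol-fed group on both, and its fitted alcohol effects were 0.71 ± 0.59 in fractured and 0.92 ± 0.59 in unfractured rats.

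No cullin passed in any of the 5 comparisons. Cul5, the scaffold of the SOCS-box ligases, had ratios of -1.06, 0.63, -0.29, 0.74, 0.95 and -0.70 in the order above, and Cul3, which works with BTB proteins, 0.97, -0.35, 0.35, -0.53, -0.16 and -0.23. Cul5 was higher in pair-fed no fracture on all 3 pairings of that group. For fracture in pair-fed rats Cul5 was at -0.87 ± 0.23, Cul3 at 0.66 ± 0.24 and Cul1 at 0.44 ± 0.18, each with an adjusted p of 1, and with the doubtful column turned they were at -0.72, 0.48 and 0.41. The 6 cullins had a median of -0.050 in the fracture effect in alcohol-fed rats, with 3 positive and 0 at an unadjusted p under 0.05.

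Of the 41 F-box genes, 22 were positive in the fracture effect in alcohol-fed rats and the median was 0.023. Past Fbxo42 and Fbxo5, unadjusted p-values under 0.05 were found for Fbxo39 at -0.79 ± 0.26, Fbxl22, a cardiac F-box protein in mouse, at -0.73 ± 0.18, Fbxl12 at -0.61 ± 0.20 and Fbxo30 at 0.37 ± 0.14. Fbxo34 had the highest value of the family, 0.99 ± 0.48, or 0.55 with the doubtful column turned, and 1.69 on alcohol-fed fracture over alcohol-fed no fracture. Fbxl5, the F-box protein that senses iron, was at 1.95 on pair-fed fracture over alcohol-fed no fracture, the highest member there, and between -0.87 and 0.62 on the other 5 pairings. Its fitted fracture effect in alcohol-fed rats was 0.16 ± 0.58, and -0.81 with that column turned.

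The muscle ligases did not move together. Trim63 was at -3.78 on pair-fed fracture over alcohol-fed fracture, the lowest member value of the series, and at 0.03, 0.26, -0.31, -0.32 and 0.74 on the other pairings in order. Its fitted alcohol effect in fractured rats was 2.08 ± 0.69 with an adjusted p of 0.318, and 0.38 ± 0.28 without that 1 pairing. For fracture in alcohol-fed rats it was at 1.38 ± 0.69, and 0.53 ± 0.22 without it. Fbxo32 was at 0.07 ± 0.20 and 0.22 ± 0.20 in these comparisons, and its 2 probes gave 0.57 and -0.14 in the second. Fbxo40, another F-box protein of muscle, was at -0.19 ± 0.18 and -0.37 ± 0.18. On pair-fed fracture over alcohol-fed fracture 12 of the 14 muscle markers were negative, from -2.14 for Acta1 to 0.18 for Myh7, so Trim63 lay below them all; the part of muscle content in its value was not tested.

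The 40 genes of the USP row, the largest family of deubiquitinases, had a median of 0.026 in the fracture effect in alcohol-fed rats, with 22 positive and none past the threshold. At an unadjusted p under 0.05 there were 4 negative and 3 positive of the 40, beside 10.8% and 8.17% of all rows. The negative ones were Usp42 at -0.86 ± 0.25, Usp25 at -0.81 ± 0.24, Usp50 at -0.62 ± 0.22 and Usp30, which sits on mitochondria, at -0.48 ± 0.16. Usp28, the closest relative of Usp25, was on the other side at 0.64 ± 0.21, and its ratio on alcohol-fed fracture over alcohol-fed no fracture was 0.89 where that of Usp25 was -1.20. Usp14, which works at the proteasome, was at -0.10 ± 0.35, and Usp7, the deubiquitinase of Mdm2, at -0.10 ± 0.20. The 5 OTU genes lay between -0.38 for Otud7a and 0.22 for Otud6a.

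The other comparisons called none of the 158 genes, beside a background of 0% each. For the effect of alcohol in unfractured rats 5 members had an unadjusted p under 0.05, 3.16%, beside 3.48% of all rows, with 4 positive (2.14% of all rows) and 1 negative (1.34%), and the smallest adjusted p was 0.999. These were Ube2g1 at 0.58 ± 0.17, Fbxo42 at 0.63 ± 0.22, Cul1 at 0.53 ± 0.18, Fbxo5 at 0.46 ± 0.17 and Cul5 at -0.68 ± 0.23. Ube2g1, Fbxo42 and Fbxo5 thus had values above 0 without fracture and below 0 with it. For the effect of fracture in pair-fed rats 4 members had an unadjusted p under 0.05, 2.53%, beside 1.9% of all rows. They were 3 positive, Uchl1, Cul1 and Cul3, beside 1.05% of all rows, and 1 negative, Cul5, beside 0.849%, with the values given above.

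The test of whether the fracture effect differed between diets, the interaction, called none either, with 15 members at an unadjusted p under 0.05, 9.49%, beside 10.6% of all rows. Of these 4 were positive, beside 3.81% of all rows, and 11 negative, beside 6.77%. The most negative fitted interactions were -2.09 ± 0.32 for Fbxo42 (adjusted p 0.138), -1.88 ± 0.56 for Psmb5, -1.82 ± 0.24 for Ube2g1 (adjusted p 0.138), -1.51 ± 0.24 for Fbxo5 (adjusted p 0.143) and -0.97 ± 0.28 for Psmc5. On the positive side were Uchl1 at 1.38 ± 0.55, Ube2l3 at 0.82 ± 0.33, Ube2q2 at 0.61 ± 0.23 and Psmd1 at 0.55 ± 0.19. These fitted interactions are the same with the doubtful column turned, because that pairing does not enter them, though its errors change: 21 members then had an unadjusted p under 0.05, 13.3%, beside 12% of all rows, and 0 passed. A difference of the fracture effect between diets was therefore not shown for any of the 158 genes.

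Probes of 1 gene often differed. There were 35 members with more than 1 probe, 80 in all, and in 12 of the 35 all probes had the same sign in the fracture effect in alcohol-fed rats. The median range between probes of 1 gene was 0.37, beside a median size of 0.22 over the members. Fitted probe by probe, 8 of the 203 probes passed, beside 4.62% of all probes. They were the single probes of Uchl1, Ube2g1, Fbxo5, Fbxo42 and Psmc5 (adjusted p 0.0491) and 1 probe each of Fbxo39 at -1.29, Psmg2 at -1.11 and Usp42 at -1.89. The other probe of Psmg2, an assembly chaperone, was at 0.79, and the other 2 of Usp42 at -0.53 and -0.15. The 4 genes that passed on averages have 1 probe each, so their values have no second probe beside them.

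**Figure D5:**
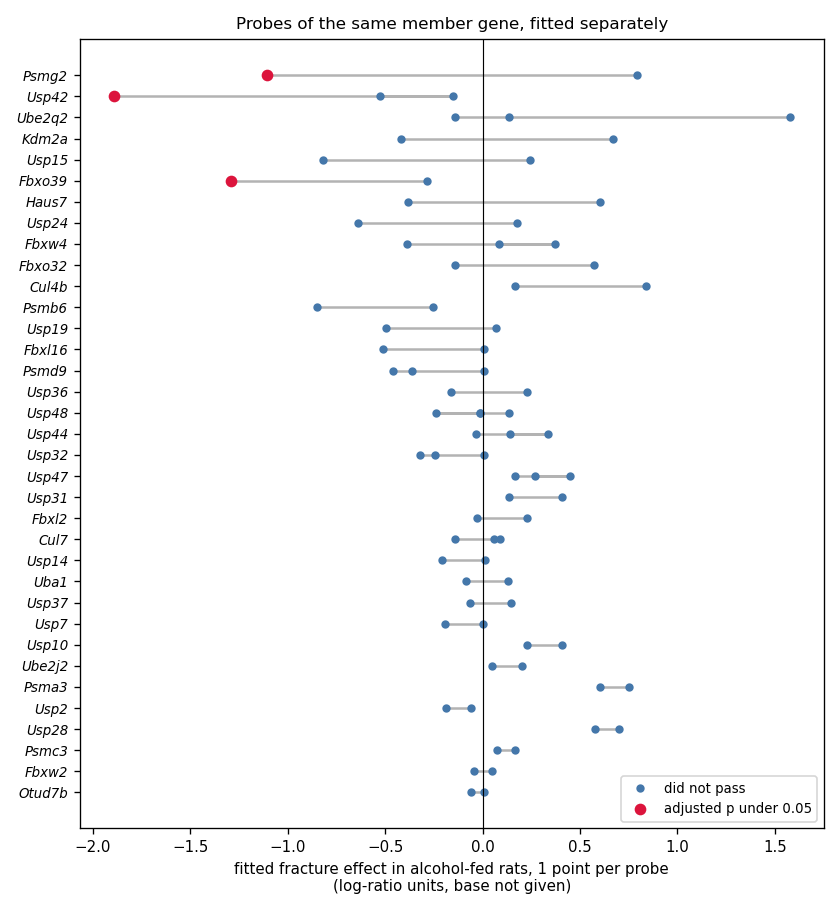
Fitted fracture effect in alcohol-fed rats (horizontal axis, log-ratio units, base not given) of each probe of the 35 genes with more than 1 probe, 1 row per gene ordered by the range between probes; red points passed an adjusted p of 0.05. Psmg2 has the widest range, 1.90, with its probes on both sides of 0.

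Other genes of the pathway, from lists of ligases, cullin partners, proteasome factors and shuttles, were measured for 72 symbols outside the choice above. Of these, 2 passed in the fracture effect in alcohol-fed rats, both negative, beside the 4.24% of all rows. Txnl1, a thioredoxin-like protein bound to the proteasome, was at -1.21 ± 0.20 (adjusted p 0.033), and Dcun1d1, which helps to attach NEDD8 to cullins, at -0.83 ± 0.16 (adjusted p 0.0454). At an unadjusted p under 0.05 there were 13 positive and 6 negative of the 72, beside 8.17% and 10.8% of all rows. Trim54, the muscle relative of Trim63, was at -0.66 ± 0.15 (adjusted p 0.0628) and so on the other side of 0 from Trim63. Rbx1, the RING subunit of the cullin ligases, was at 0.68 ± 0.16 and Cops8, of the signalosome that takes NEDD8 off, at 0.69 ± 0.18, while Skp1, which joins F-box proteins to Cul1, was at -0.98 ± 0.33.

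In the other comparisons the 72 genes gave 0 calls with the titles' signs. In the effect of alcohol in fractured rats the smallest unadjusted p-values belonged to Dcun1d1 at -0.73 ± 0.16, Atxn3, a deubiquitinase, at 1.39 ± 0.34 and Trim54 at -0.56 ± 0.15, and Dcun1d1 passed with the column turned. In unfractured rats they belonged to Txnl1 at 0.71 ± 0.20, the immunoproteasome subunit Psmb9 at -0.44 ± 0.16 and the chaperone-bound ligase Stub1 at -0.37 ± 0.14. For fracture in pair-fed rats they belonged to Josd2 at -0.39 ± 0.17, Ddi2 at 0.39 ± 0.17 and Psmb9 at -0.36 ± 0.16, and for the interaction to Txnl1, Cops8 and Rbx1.

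Some markers of other cells in the tissue moved in the same comparison. In the fracture effect in alcohol-fed rats, besides the muscle, nerve and proliferation genes above, 4 of 11 erythroid markers passed, all negative. The median of the 11 was -0.49, with 5 positive and the highest, Epb42, at 1.23. Of 6 macrophage markers 4 were positive and 2 of these passed. Their list had a median of 0.23 and its lowest, Mrc1, was at -0.46. Of 5 neutrophil, 8 osteoblast and 4 B lymphocyte markers 1 each passed, all negative, with medians of -0.66, -0.016 and -0.82. In these 3 lists 1, 4 and 1 markers were positive. Over all rows 0.828% passed as positive and 3.41% as negative. With the doubtful column turned, 0 of all rows passed in this comparison, so no marker of these cells did. The part of these cells in the values of the ubiquitin and proteasome genes was not tested.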

How the data were processed

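RNA of the callus region was hybridised on 2-colour arrays. Per the labels, the deposited value of a probe on a pairing is a log ratio over both dyes; its base, and how the authors scanned, background-corrected and normalized the arrays, were not given in the sources used here. Every deposited column has a mean of 0, so a shift of all genes cannot be seen, and without intensities dim probes could not be left out. With 6 pairings, precision is limited.

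Of 26503 probes 22 control spots were left out. Annotation gave 15521 probes 1 symbol and 10960 none; 3638 symbols were updated through synonyms in RefSeq, among them those of 5 members. Probes of 1 gene were averaged, giving 23549 rows. limma 3.58.1 in R 4.3.3 was fitted to the 6 pairings, coded +1 and -1 for first and second group, with 3 residual and 3.66 prior degrees of freedom; p-values are two-sided and were adjusted by Benjamini-Hochberg across the 23549 rows, with a cutoff of 0.05. The fit was tested on simulated data with independent noise and effects coded by the titles' signs. That test cannot show whether the sign of the doubtful column is right.

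The genes named were, per comparison, those past the threshold, the 5 largest each way at an unadjusted p under 0.05, the smallest p of each role, and a list of well-known components, of which some, such as Uchl3, Uchl5 and Fbxo7, are not analysed here; further genes were named after their values were seen. Members, lists and rules were chosen with earlier results of these data known. Alternatives were a turned column, columns scaled to 1 spread, single probes, unmoderated variances, median centring and leaving out each pairing.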

Additional observations from a re-analysis of the deposited data

How the results depend on the processing

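The count of ubiquitin and proteasome genes past the threshold depended on the processing in 2 comparisons. In the alcohol effect in fractured rats it was 0, and 4 with the column of pair-fed fracture over alcohol-fed no fracture turned. In the fracture effect in alcohol-fed rats it was 4, and 0 with that column turned, 8 probes with each probe fitted on its own, 0 with unmoderated variances and 0 with columns scaled to the same median absolute deviation, which was chosen after seeing the data, while scaling to the same standard deviation gave 4 and median centring 5. Leaving out 1 pairing gave 0 to 5, with 0 without pair-fed fracture over pair-fed no fracture, without pair-fed fracture over alcohol-fed no fracture or without alcohol-fed fracture over alcohol-fed no fracture, 4 without pair-fed fracture over alcohol-fed fracture and 5 without either of the other two. The cause was not tested. In the 3 other comparisons the count was 0 in each of these settings. Of single genes, Trim63 in the alcohol effect in unfractured rats turned from -0.0095 to 0.121 with the column turned and to 0.089 with columns scaled, and ranged from -0.378 to 0.523 with 1 pairing left out. Ube2q2 had 1 probe at -0.074 in the alcohol effect in fractured rats and at -0.0592 in the interaction, and Psmg2 had 1 probe at 0.447 in the alcohol effect in unfractured rats. With 1 pairing left out, Psme2 ranged from -0.322 to 0.557 in the alcohol effect in fractured rats. In unfractured rats Psmb4 then ranged from -0.855 to 0.0448 and Psmg2 from -0.151 to 0.249. In the fracture effect in pair-fed rats Psme2 ranged from -0.478 to 0.0887, Psmg1 from -0.0054 to 0.388 and Trim63 from -1.45 to 0.139. No paired analysis was possible because each number of a group marks a sample used on 1 pairing, with 1 sample of each group on it.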

Other observations

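Updating the symbols brought 15 further genes under the same naming rule, among them Cul9, Fbxo45, Fbxo48, Fbxw17, Otulinl, Psma6-ps1, Psma8, Psme3ip1, Psmg3, Uba2, Ube2d2b, Ube2k, Ube2q2l and Usp51. None of them passed the threshold in limma in the fracture effect in alcohol-fed rats, beside 4.24% of all rows. Of the 15, 2 had an unadjusted p under 0.05, beside 18.9% of all rows. Ube2k, an E2 that builds chains, was at 0.61 ± 0.16 with an adjusted p of 0.0936, and Fbxw17 at 0.37 ± 0.15. Uba2, the catalytic part of the SUMO E1, was at 1.48 on pair-fed fracture over alcohol-fed no fracture and between -0.61 and 0.44 on the other 5 pairings.

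The interferon-induced subunits Psmb9 and Psmb10 and the deubiquitinase Usp18, left out of the choice, were measured, and none passed in any of the 5 comparisons. In the fracture effect in alcohol-fed rats they were at 0.04 ± 0.16, 0.24 ± 0.21 and -0.19 ± 0.18. On pair-fed no fracture over alcohol-fed no fracture Psmb9 was at 0.62 and Psmb10 at 0.61, where Usp18 was at 0.16.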
